A study of Homo sapiens with 10 samples.

Results

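The NRF2 pathway and the genes that guard cells against ferroptosis were followed through a map of accessible chromatin in MDA-MB-231 cells, an established line of triple-negative breast cancer. The set holds 10 genes. NFE2L2 encodes the transcription factor NRF2, and KEAP1 encodes its inhibitor. SLC7A11, GCLC and GCLM supply cystine and glutathione, GPX4 and AIFM2 act against lipid peroxidation, and HMOX1, NQO1 and TXNRD1 are antioxidant enzymes induced by NRF2. The genes were chosen by name, and their peaks were taken by rule: every row listed under the gene's Ensembl identifier, and every row that overlaps its hg38 gene span. This gave 97 of the 161934 peaks in the list, of which 66 overlapped a gene span and 31 lay outside it.

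NRF2 is held in the cytoplasm by KEAP1, which passes it to a ubiquitin ligase for degradation. Oxidants and electrophiles modify KEAP1, and NRF2 then enters the nucleus, pairs with a small MAF protein and binds antioxidant response elements near its target genes. Ferroptosis is a form of cell death driven by iron and by peroxidation of membrane lipids, which glutathione, GPX4 and the ubiquinone reductase FSP1 (the product of AIFM2) counter.

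The study compared 5 ARID1A knockout and 5 control libraries, all made from MDA-MB-231 cells by ATAC-seq, which reads out open chromatin through the sites where a transposase can insert. ARID1A is a subunit of the SWI/SNF chromatin remodelling complex. Neither a treatment nor the way in which the knockout was made is given in the labels, nor whether it is 1 clone or whether replicates were separate cultures. The deposited list is shared by all libraries and holds 0 columns with a value per library, so depth, replicate error and the difference between the genotypes could not be computed for any gene. What the list does give for each peak is its position, its length, an annotation and the nearest transcript. No value below separates knockout from control cells.

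A peak lay within 1000 bases of a listed transcript start, a start peak, at 10 of the 10 genes. Of 18289 protein-coding genes with a known strand, 76.9% had such a peak. Listed starts are those of the RefSeq promoter table, and for SLC7A11 and HMOX1 the outermost RefSeq boundary. The start base itself was covered at all 15 starts listed for the 10 genes. Some of these starts, as at GPX4, share a peak. Of the 18289 protein-coding genes, 69.5% had a peak over a listed start base. The window from 250 bases before to 50 bases after the start lay wholly inside peaks at 11 of the 13 starts that have an entry in the promoter table, against 57% of 22132 such windows of protein-coding genes. It was covered in part at GCLC, to 67.3%, and at the outermost start of KEAP1, to 83.0%. The list holds peaks from all libraries together, so a covered start does not show that the gene was accessible in each genotype.

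**Figure D1:**
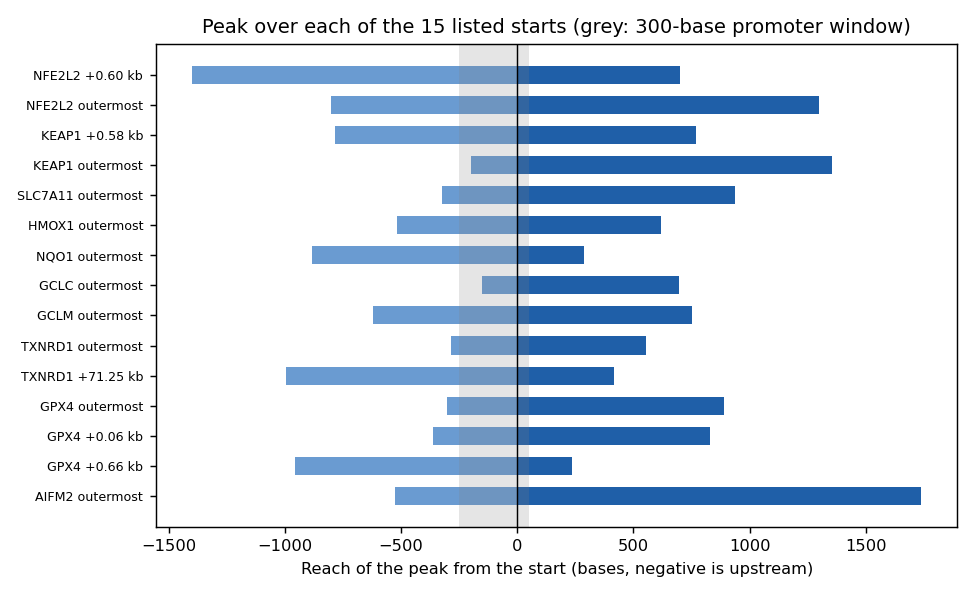
Reach of the covering peak from each of the 15 listed starts, in bases, with upstream reach to the left in light blue and downstream reach to the right in dark blue. The grey band is the 300-base promoter window. The band lies wholly inside the bar except at the outermost start of KEAP1 and at GCLC, whose peaks reach 199 and 152 bases upstream.

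Most start peaks of these genes were close to the usual length, and those of AIFM2 and NFE2L2 were long. The longest start peak had a median of 1318 bases over the 10 genes, and of 1266 bases over the 14061 protein-coding genes with a start peak. AIFM2 had the longest, 2263 bases, longer than 95.9% of those genes, and NFE2L2 followed with 2100 bases, longer than 93.4%. The shortest was at GCLC, the catalytic subunit of glutamate-cysteine ligase, with 850 bases, longer than 17.5%. GCLM, the modifier subunit of the same enzyme, had 1373 bases. The other genes lay between NFE2L2 and GCLC, from 1138 bases at HMOX1 to 1556 bases at KEAP1. The value of TXNRD1, 1412 bases, is that of its inner listed start. The peak at its outermost start had 840 bases, fewer than that of GCLC. Length is not height: the list gives no read count or enrichment for a peak.

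**Figure D2:**
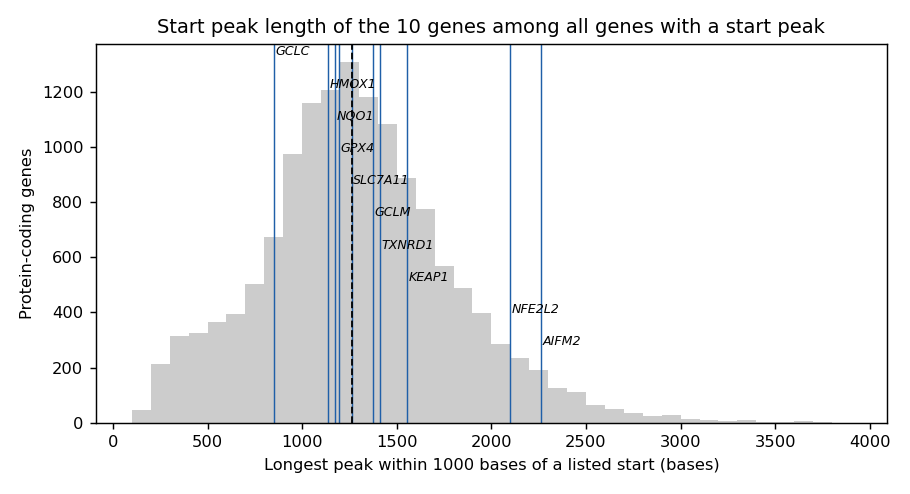
Length of the longest start peak in bases (x axis) over the 14061 protein-coding genes that have one (y axis, genes per 100 bases of length). Blue lines mark the 10 genes and the dashed line the median of 1266 bases. AIFM2 and NFE2L2 stand in the right tail, GCLC in the left part, and the others near the middle. TXNRD1 is marked at the peak of its inner start.

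The letters of the antioxidant response element were searched in the promoter windows, which RefSeq (GRCh38.p14) gives for 13 starts of 8 of the 10 genes. The core TGANNNNGC, on either strand, was found in 7 of the 13 windows and at 6 of the 8 genes: NFE2L2, KEAP1, NQO1, GCLM, TXNRD1 and AIFM2. The same letters are in 41.8% of all 35116 windows and at 49.6% of 15812 protein-coding genes. With T or C at the fourth letter (TGACNNNGC or TGATNNNGC), 5 of the 13 windows held it, at KEAP1, GCLM, TXNRD1 and AIFM2, against 19.9% of all windows and 24.9% of the protein-coding genes. The letters of the AP-1 element, TGANTCA, were found in 1 of the 13 windows, that of AIFM2, and are in 7.71% of all windows. At AIFM2 they overlap the antioxidant response element as TGACTCAGC, 22 to 14 bases before the start and on the opposite strand. The joined form TGANTCAGC is in 1.36% of all windows. A match of letters is no measure of binding. All matches in these windows lay inside a peak, which follows from the windows with a match lying wholly inside peaks.

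The sequences of 6 of these windows show where the letters fall in accessible DNA. Each runs from 250 bases before the start to the start base, 5′ to 3′ on the gene's strand, in lower case with TGANNNNGC or its reverse complement in capitals, as RefSeq (GRCh38.p14) gives the sequence. AIFM2 holds the joined element. GCLM and TXNRD1 hold the element with C at the fourth letter, NQO1 holds only the looser form, and GPX4, with no match, is shown as the contrast.
AIFM2 (chr10:70132825-70133075, minus strand): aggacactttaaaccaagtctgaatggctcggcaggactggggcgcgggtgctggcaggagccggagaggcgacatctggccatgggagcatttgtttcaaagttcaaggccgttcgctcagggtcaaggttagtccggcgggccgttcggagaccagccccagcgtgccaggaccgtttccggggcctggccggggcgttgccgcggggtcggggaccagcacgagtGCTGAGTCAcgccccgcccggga
GCLM (chr1:93909430-93909680, minus strand): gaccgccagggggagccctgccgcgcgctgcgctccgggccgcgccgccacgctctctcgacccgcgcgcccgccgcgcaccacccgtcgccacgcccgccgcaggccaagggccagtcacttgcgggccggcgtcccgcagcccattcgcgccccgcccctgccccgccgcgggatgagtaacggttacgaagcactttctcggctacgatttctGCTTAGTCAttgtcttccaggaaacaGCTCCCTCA
TXNRD1 outermost start (chr12:104215529-104215779, plus strand): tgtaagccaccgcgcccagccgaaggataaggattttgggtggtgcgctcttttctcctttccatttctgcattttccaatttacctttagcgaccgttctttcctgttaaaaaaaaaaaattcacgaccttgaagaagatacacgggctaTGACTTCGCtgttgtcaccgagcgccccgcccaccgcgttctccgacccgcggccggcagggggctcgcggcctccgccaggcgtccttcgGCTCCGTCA
TXNRD1 inner start (chr12:104286782-104287032, plus strand): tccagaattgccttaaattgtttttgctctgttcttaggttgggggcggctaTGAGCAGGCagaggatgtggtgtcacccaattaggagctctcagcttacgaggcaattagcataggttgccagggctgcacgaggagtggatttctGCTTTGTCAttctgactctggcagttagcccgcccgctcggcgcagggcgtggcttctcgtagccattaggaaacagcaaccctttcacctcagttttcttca
NQO1 (chr16:69726560-69726810, minus strand): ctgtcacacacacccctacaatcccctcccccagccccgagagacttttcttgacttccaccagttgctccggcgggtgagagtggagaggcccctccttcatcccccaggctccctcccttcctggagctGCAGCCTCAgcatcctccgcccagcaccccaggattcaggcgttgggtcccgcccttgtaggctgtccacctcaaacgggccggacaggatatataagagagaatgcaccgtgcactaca
GPX4 outermost start (chr19:1103744-1103994, plus strand): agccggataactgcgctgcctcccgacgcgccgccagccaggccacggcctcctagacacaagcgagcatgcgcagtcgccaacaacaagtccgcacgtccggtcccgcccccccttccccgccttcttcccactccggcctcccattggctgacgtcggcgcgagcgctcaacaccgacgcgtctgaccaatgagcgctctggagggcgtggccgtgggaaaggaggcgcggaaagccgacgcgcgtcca

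In GCLM the letters TGACTAAGC lie on the opposite strand, 34 to 26 bases before the start. The same 9 letters lie on the opposite strand in the window of the inner KEAP1 start, 31 to 23 bases before it, and are found in 0.103% of all windows (36 of 35116). This pair was noticed after the matches were seen. GCLM has a second match, TGAGGGAGC on the opposite strand, from 8 bases before the start to the start base. At the outermost TXNRD1 start TGACTTCGC lies 99 to 91 bases before the start, and at its inner start TGACAAAGC lies 102 to 94 bases before it, on the opposite strand. The outermost start also has TGACGGAGC on the opposite strand, from 8 bases before the start to the start base. The inner one also has TGAGCAGGC, 198 to 190 bases before it. NQO1 has TGAGGCTGC 119 to 111 bases before the start. The antioxidant response element for which NQO1 is known lies further upstream than this window, and the sequence there was not used here. The NQO1 start peak reaches 884 bases upstream of the start and 288 bases into the gene. No match was found in the windows of GCLC, GPX4, the outermost NFE2L2 start or the outermost KEAP1 start, which says only that these letters are not in these 300 bases.

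Among the regulators, NFE2L2 (ENSG00000116044, chromosome 2, 177230303 to 177264727, minus strand) had 7 peaks, 5 of them in its span. The start peak at 177263430 to 177265529 covered both listed starts and reached 802 bases upstream and 1297 bases downstream of the outer one. The other 4 span peaks lay between 11370 and 24732 bases into the gene. The list places 3 of them in intron 1 of 4. The 2 longer ones, of 1613 and 1367 bases, are longer than 96.7% and 93.5% of all peaks. Both are listed under MIR3128, a microRNA gene inside the intron, and the nearer one carries a promoter label because of that gene. A further 2 peaks, of 590 and 284 bases, began at -17810 and -25513 bases from the start. Both are listed by an NFE2L2 transcript that starts further upstream, 5240 and 2180 bases from them.

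KEAP1 (ENSG00000079999, chromosome 19, 10486125 to 10503356, minus strand), the substrate adaptor that captures NRF2, had 5 peaks and only 2 in its span. The start peak of 1556 bases covered both listed starts and lay mostly downstream of the outer one, with 199 bases before and 1356 after it. The other, of 1057 bases, lay 10407 bases into the gene, 13 bases upstream of another annotated start. Genes of similar length, 0.8 to 1.25 times that of KEAP1, had a median of 2 span peaks. Of the 3 peaks outside the span, 1 of 329 bases lay 2343 to 2671 bases upstream, and the others, the longer of 830 bases, lay past the 3' end.

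**Figure D3:**
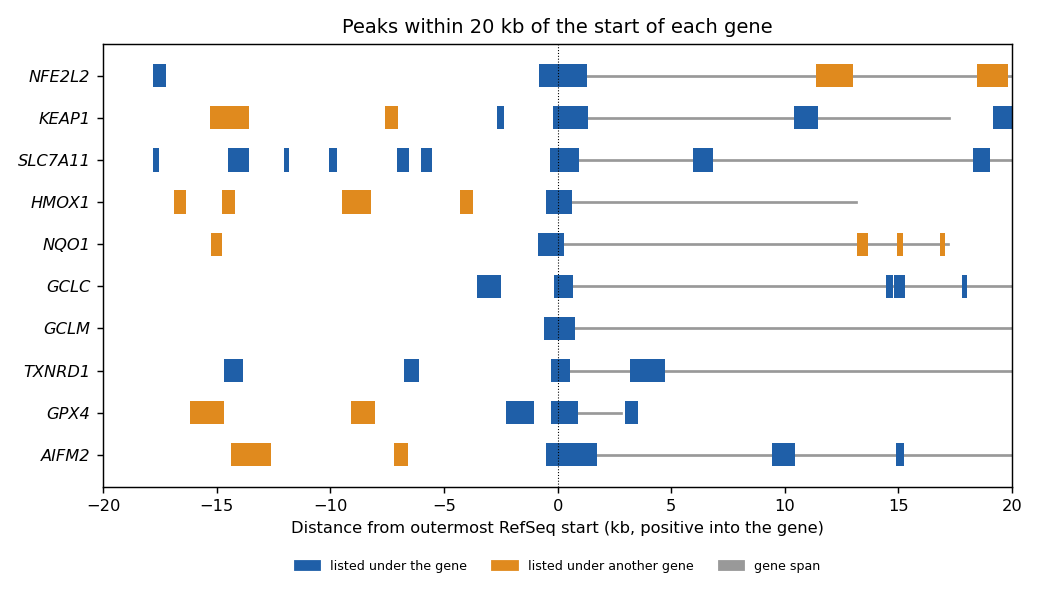
Peaks within 20 kb of the outermost RefSeq start of each gene (x axis, kb, positive into the gene), drawn to scale. Peaks taken by the rule are drawn, and upstream of the start also those outside the rule. Past the 3' end of a gene, peaks outside the rule are not drawn. Blank space there does not show a lack of peaks. Blue peaks are listed under the gene, orange peaks under another gene, and the grey line is the gene span. All 10 genes have a peak over the start, SLC7A11 and HMOX1 have 6 and 4 peaks upstream, and GCLM has none besides its start peak.

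SLC7A11 (ENSG00000151012, chromosome 4, 138164097 to 138242349, minus strand) encodes the light chain of the cystine importer xCT. In other cancer cells ARID1A has been tied to its transcription. It had 17 peaks, 11 of them in the span. The start peak at 138241411 to 138242672 was 1262 bases long, with 323 bases before and 938 bases after the start. A peak of 875 bases lay over exon 2 of 12, 5969 bases into the gene. An alternative start was flanked by 2 peaks, 1 of 763 bases ending 56 bases upstream of it and 1 of 305 bases beginning 963 bases downstream. Introns 5 and 6 held 6 peaks of 188 to 590 bases, and the last span peak, 352 bases at 59012 bases into the gene, is listed as 3' UTR. The last 3 span peaks are listed under ENSG00000250033, for which the files pair no symbol.

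SLC7A11 was rich in peaks for its surroundings. Its span held 1.41 peaks per 10000 bases, while the 500 kb on either side held 0.51. Among 1656 genes of similar length, 85.3% had fewer span peaks and the median was 5. All 6 peaks upstream of the start, from 5511 to 17793 bases away, are listed as distal intergenic, and the longest of them had 906 bases. Within 50 kb of the start lay 18 peaks, more than at 93.0% of protein-coding genes. Most were short: 7 of the 11 span peaks were under the median length of all peaks, 539 bases. A span denser than its flanks was not particular to SLC7A11. It was also seen at NFE2L2, NQO1, GCLC, TXNRD1, GPX4 and AIFM2, but not at KEAP1, HMOX1 and GCLM. At GPX4 it rests on the start peak alone, in a span of 2786 bases. At HMOX1, also with its start peak alone, span and flanks were nearly equal, with 0.76 and 0.77 peaks per 10000 bases. At NQO1 the span held 2.33 peaks per 10000 bases and the flanks 0.62.

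The subunits of glutamate-cysteine ligase, which makes the first bond of glutathione, differed in their number of peaks. GCLC (ENSG00000001084, chromosome 6, 53497341 to 53545101, minus strand) had 14 peaks, 7 in the span, and GCLM (ENSG00000023909, chromosome 1, 93885199 to 93909430, minus strand) had 1. The GCLM peak, at 93908677 to 93910049, reached 619 bases upstream and 753 bases downstream of the start. Of 2200 genes of GCLM's length, 71.6% had more span peaks, 5.64% had fewer and the median was 2. Of 2084 genes of GCLC's length, 15.1% had more, and the median was 4. The flanks do not show this order: the 500 kb on either side held 1.18 peaks per 10000 bases at GCLM and 0.94 at GCLC.

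GCLC was also marked at starts other than the main one. Its start peak, at 53544404 to 53545253, reached only 152 bases upstream. A second peak of 1051 bases, 2486 to 3536 bases upstream, covered the start of a longer annotated transcript. The distal antioxidant response element known for this gene lies a few kilobases upstream of the main start, and whether this peak holds it was not tested, as no sequence of the region was used. Another alternative start, far upstream, had a peak of 1237 bases whose near edge lay at -70476 bases, 157 bases from that start, and an intron peak of 367 bases lay between it and the gene. Inside the gene a peak of 520 bases lay 265 bases upstream of one more alternative start, and 5 intron peaks had 258 to 555 bases. Downstream of the gene 4 peaks are listed under GCLC. The longest of these, of 1821 bases, began 78436 bases from the start, past the end of the span.

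**Figure D4:**
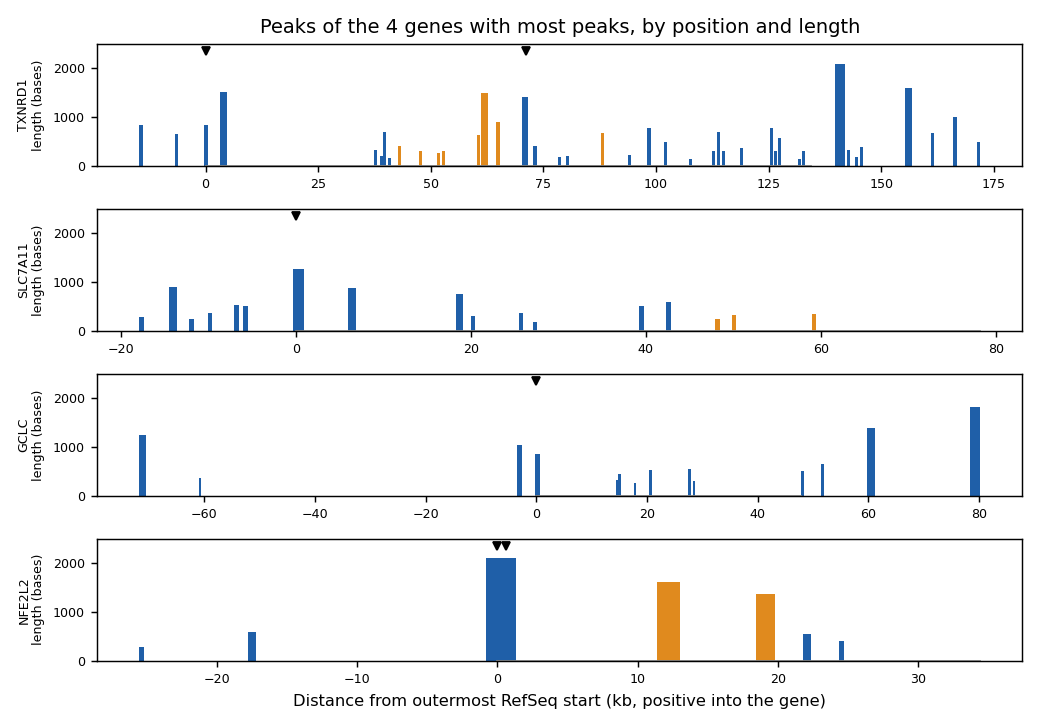
Peaks of TXNRD1, SLC7A11, GCLC and NFE2L2 by distance from the outermost start (x axis, kb, a separate scale for each gene) and by length (y axis, bases). Blue bars are listed under the gene and orange bars under another gene, black triangles are the listed starts, and narrow bars have a minimum drawn width. Start peaks of SLC7A11 and NFE2L2 are the longest of their genes, while the longest of TXNRD1, 2090 bases, lies past its end.

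GPX4 and AIFM2, which act against lipid peroxidation, had compact patterns. GPX4 (ENSG00000167468, chromosome 19, 1103994 to 1106779, plus strand), the glutathione peroxidase that reduces lipid hydroperoxides in membranes, spans only 2786 bases. It had 1 span peak, 1194 bases at 1103693 to 1104886, which covered all 3 listed starts. A peak of 1233 bases lay 1043 to 2275 bases upstream and 1 of 569 bases began 2975 bases from the start, just past the end of the gene. GPX4 lies in a peak-rich region, with 21 peaks within 50 kb of the start, more than 97.7% of protein-coding genes. The 500 kb on either side held 2.01 per 10000 bases.

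AIFM2 (ENSG00000042286, chromosome 10, 70112271 to 70132825, minus strand) had 4 peaks, 3 of them in the span. The start peak, at 70131087 to 70133349, lay mostly inside the gene, with 524 bases before and 1738 bases after the start. The other 2 span peaks, of 1010 and 377 bases, lay 717 and 401 bases downstream of alternative starts. The fourth peak, of 882 bases, began 24978 bases from the start, in an intron of the neighbouring gene. No span peak of AIFM2 carries an intron or exon label. Its number of span peaks, 3, stood close to that of genes of its length, with a median of 2 and quartiles of 1 and 3.

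Among the induced enzymes, HMOX1 (ENSG00000100292, chromosome 22, 35381096 to 35394207, plus strand), which breaks down haem, had a single peak by the rule. It lay at 35380578 to 35381715, with 518 bases before and 619 bases after the start, and no other peak overlapped the span. Of 1959 genes of similar length, 57.6% had more span peaks and 10.6% had fewer. Upstream of the start, however, 4 peaks within 20 kb are listed under other genes. The nearest, of 588 bases, lay 3716 to 4303 bases upstream, and the next, of 1279 bases, lay 8228 to 9506 bases upstream. Both carry a promoter label from transcripts of other Ensembl genes. The remaining pair, of 601 and 513 bases, is listed as distal intergenic. These peaks lie outside the rule and were picked out after they were seen. HMOX1 is known, chiefly from the mouse gene, for a pair of distal upstream enhancers with antioxidant response elements. Whether these peaks are the human counterparts was not tested.

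NQO1 (ENSG00000181019, chromosome 16, 69709401 to 69726560, minus strand), a quinone reductase and classic NRF2 target, had 4 peaks, all overlapping the span. Its start peak, 1173 bases at 69726272 to 69727444, lay mostly upstream of the start. RefSeq places the beginning of NQO1-DT, a divergent non-coding gene, at 69726727 inside this peak, so the peak cannot be given to either gene alone. The other 3 peaks, of 227 to 493 bases, lay near the 3' end, from 13188 bases into the gene onwards. They are listed under NQO1-AS1, an antisense gene there, which gives 2 of them a promoter label. Of 2043 genes of similar length, 6.41% had more span peaks than NQO1, and the median was 2.

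TXNRD1 (ENSG00000198431, chromosome 12, 104215779 to 104350307, plus strand), the cytosolic thioredoxin reductase, had 41 peaks, 31 of them in its span of 134529 bases. This was 47.0% of all 66 span peaks of the 10 genes. Among 1256 genes of similar length the median was 8 span peaks (quartiles 5 and 13), and 0.0796% had more. The span held 2.3 peaks per 10000 bases, against 1.06 in the 500 kb on either side. Upstream of the start lay 2 more peaks, of 655 and 830 bases. Peaks of nested genes count in the span: 8 of the 31 are listed under RPL18AP3, TXNRD1-AS1 or EID3, and without them 23 remain. The longest of these 8, of 1491 bases, is listed under TXNRD1-AS1. Of the 31, 12 had the median length of 539 bases or more.

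Both listed TXNRD1 starts were covered, and the inner one by the longer peak. The outermost start peak had 840 bases, with 283 before and 556 after the start. The peak at the inner start, which begins the shorter transcripts, had 1412 bases at 104286036 to 104287447, and reached 996 bases upstream and 415 bases downstream. In intron 1 of 16 a peak of 1517 bases, longer than 95.7% of all peaks, began 3199 bases into the gene. The next began at 37526 bases, and none of the list lay between. Past the inner start, 17 span peaks followed up to the 3' end, of which the longest had 785 bases. A further 3 alternative starts had short peaks of 213 to 412 bases. Downstream of the gene 8 peaks are listed under TXNRD1, led by 1 of 2090 bases that is longer than 99.2% of all peaks.

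**Figure D5:**
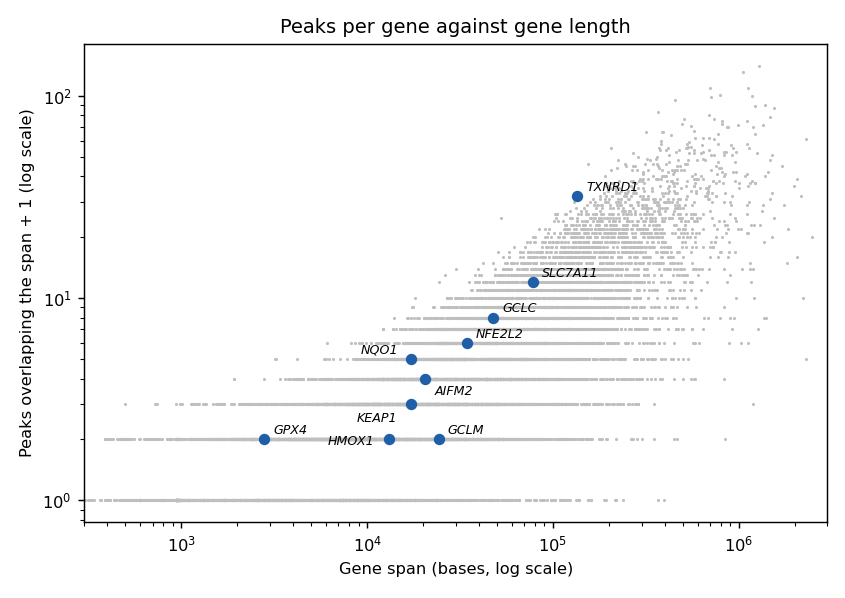
Peaks that overlap a gene span plus 1 (y axis, log scale) against the length of the span in bases (x axis, log scale) for 18289 protein-coding genes in grey and the 10 genes in blue. TXNRD1, with 31 peaks, lies at the upper edge of genes of its length. GCLM and HMOX1, with 1 each, lie at the lower quartile of genes of similar length.

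By role in the list, the 97 peaks were 10 at outermost starts, 12 at alternative starts, 46 elsewhere in the spans and 29 outside the spans. Of the 12 at alternative starts, 2 peaks of GCLC lay upstream of the RefSeq span and count among the 31 outside. Median lengths were 1228 bases at outermost starts, 641.5 at alternative starts, 362 elsewhere in the spans and 569 for the 29 outside. Peaks of 539 bases or more were 10 of 10, 6 of 12, 16 of 46 and 15 of 29 in the same order. By the list's labels 36.1% of the 97 were promoter and 36.1% intron, against 30.4% and 34.1% of all peaks. Intron peaks of these genes had a median of 372 bases, and those of the whole list 489 bases. TXNRD1 supplied 26 and SLC7A11 8 of the 46 peaks elsewhere in the spans, so the median of that class rests largely on these 2 genes.

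Other genes of the pathway, 91 in 5 lists, mostly had start peaks as well. The state was determined for 87, of which 83 (95.4%) had one, beside 76.9% of all protein-coding genes. All 16 partners and regulators of NRF2 had one, the longest at SQSTM1, the autophagy receptor that binds KEAP1 (3616 bases), GSK3B, a kinase that marks NRF2 for degradation (2035 bases), and MAFF, a small MAF partner (2028 bases). Of the NRF2 targets in redox and NADPH supply 24 of 27 had one, with TXN, thioredoxin (2491 bases), the transporter ABCC1 (1945 bases) and TALDO1 of the pentose phosphate pathway (1851 bases) leading. ABCC2, AKR1C2 and GPX2 had none, their nearest peaks lying 1439, 11068 and 3053 bases away. AKR1C2 is uncertain, since it has near-identical paralogs. Of these AKR1C1 and AKR1C3 had start peaks of 267 and 819 bases, and how reads were shared among the copies was not tested.

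Of the genes for glutathione and cystine supply, 11 of 12 had a start peak. Among them were the amino acid transporter SLC38A1 (2461 bases) and ATF4, the stress factor that induces amino acid genes (1878 bases). CBS, of the transsulfuration pathway, had none, with its nearest peak 30719 bases from a start and 0 peaks in its span, which is uncertain: hg38 is known to hold a near-identical copy of this gene, and the part of that copy was not tested. SLC3A2, the heavy chain that pairs with SLC7A11, had a start peak of 1593 bases. The lipid and iron genes of ferroptosis had one at 19 of 19 determined genes, led by the desaturases FADS1 (2529 bases) and SCD (1973 bases) and by POR, an oxidoreductase (1770 bases). The list for ferroptosis defence outside glutathione had one at 13 of 13, led by the acyltransferases MBOAT2 (2343 bases) and MBOAT1 (1924 bases). Next came DHCR7 of sterol synthesis (1735 bases). It stands in this list as a pathway gene and is not called a defence gene here.

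The joined element TGANTCAGC was also found in the promoter windows of 4 of 71 other pathway genes with an entry, beside 1.56% of 15812 protein-coding genes. They were SLC3A2, GSTP1, ME1 and OSGIN1. SLC3A2 has TGACTCAGC from 37 bases before the start, GSTP1, a glutathione transferase, from 66 bases before, and ME1, a malic enzyme that makes NADPH, from 137 bases before. OSGIN1 has TGAGTCAGC on the opposite strand from 99 bases before its start. All 4 matches lay inside a peak, as did that of AIFM2. All of these genes have a start peak, so this placing says little about the letters. The share over all windows with these letters is not given here. SLC7A11 has no entry in the table.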

How the data were processed

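ATAC-seq was deposited for 5 ARID1A knockout and 5 control libraries. The submitters' processing notes name Bowtie2 2.3.5.1, MACS2 2.2.6 and hg38. Peak thresholds, merging over libraries and the release of the annotation: not given in the sources used here. The deposited list has 17 columns, with positions, lengths and distances in bases, so the planned edgeR test of the genotypes was not run.

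Gene spans and promoter windows came from RefSeq (GRCh38.p14). Strand came from the promoter table for 15812 of 19974 protein-coding genes, and for 2477 more, SLC7A11 and HMOX1 among them, from a list transcript that shares at least 0.8 of the joint span. Where both were known, 99.9% had the same strand. Ensembl identifiers of the 10 genes were paired by position and strand. A peak at an alternative start lies within 1000 bases of a start of the gene that is over 1000 bases from the outermost one. Distances count from the outermost RefSeq start. The peak lookup and motif search were tested on simulated data. Counts are descriptions without a test, since peaks and genes are not replicates.

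Named for each list of other pathway genes are at most 3 leading in start peak length and at most 5 that lack such a peak. One gene that this rule names is not reported here. SLC3A2 and the genes with the joined element were named after their values were seen. The members and lists were chosen with earlier results of these data known. Python 3.11.15, numpy 2.4.6 and pandas 2.3.3 were used.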

Additional observations from a re-analysis of the deposited data

How the results depend on the processing

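No paired analysis was possible because libraries have no values of their own in the deposited table, so the replicate block, leaving out libraries and other normalizations were not run either. A start peak was found at 10 of 10 genes with 3000 bases, at the start base itself, at the outermost boundary, and with longer peaks only, while all protein-coding genes moved between 69.5% and 83.6%. With promoter-table genes alone it was 8 of 8. Other pathway genes gave 81 to 84 of 87. The 66 span peaks became 65 when most of a peak had to lie inside, 76 with 3000 bases on either side and 81 by gene identifier. The 65 leave out the start peak of NQO1, which went from 4 to 3 span peaks. With the 3000 bases NFE2L2 went from 5 to 9, KEAP1 from 2 to 4 and GPX4 from 1 to 3. By identifier KEAP1 had 5, GCLC 14 in place of 7, GPX4 3 and NQO1 1 in place of 4. With peaks of 539 bases or more they fell to 30, by construction, 12 of them in TXNRD1 and 4 in SLC7A11. The 7 windows with TGANNNNGC became 5 with the narrower form and 1 with TGANTCAGC, a form added after the data were seen. Depth is unknown.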

Other observations

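How a peak is tied to a gene changed the picture for several of these genes. Of the 66 peaks in the gene spans, 16 are listed under another gene, because a nested or antisense gene has the nearer start. By identifier alone NQO1 has 1 peak instead of 4, and NFE2L2 would lose its 2 longest intron peaks to MIR3128. In the other direction, 31 peaks outside the spans are listed under a member, 10 of them under TXNRD1, 7 under GCLC and 6 under SLC7A11. Counts by identifier and by span were 14 and 11 for SLC7A11, 14 and 7 for GCLC, and 33 and 31 for TXNRD1. The 4 peaks within 20 kb upstream of HMOX1 belong to it by neither rule.

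Peaks within 50 kb of the outermost start ranged from 5 at GCLM to 21 at GPX4, with a median of 9 over protein-coding genes. HMOX1 had 16, more than 86.7% of them, although its span holds a single peak, and NFE2L2 had 15, more than 82.7%.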
